A study of Mus musculus with 28 samples.

Results

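The 10 circadian clock genes Nr1d1, Nr1d2, Per1, Per2, Per3, Cry1, Cry2, Arntl (also called Bmal1), Clock and Dbp were followed across 28 arrays of mouse cortex. They were taken by gene symbol from the annotated rows of the array table, with the brightest row kept where a symbol had several; each of the 10 had 1 row, out of 30691 named genes. The 4 groups, with 7 animals each, were Rbm5 knockout mice after controlled cortical impact (KO CCI), Rbm5 knockout mice after sham (KO sham), wild type mice after controlled cortical impact (WT CCI) and wild type mice after sham (WT sham). Rbm5 encodes an RNA-binding protein that acts on splicing, and controlled cortical impact is a mechanical brain injury made with a piston. Animals were 12 to 15 weeks old, and tissue was taken 48 h after the procedure, with both sexes in each group (4 females and 3 males, or 3 females and 4 males in KO sham). Injured animals had a craniotomy over the left parietal cortex and an impact at 6 m/s to a depth of 1.2 mm, whereas sham animals had anaesthesia and no craniotomy, so craniotomy and impact cannot be told apart. The strain, the knockout allele and the time of day at which tissue was taken are not given in the sources used here.

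The mammalian clock is a transcriptional feedback loop. Arntl and Clock proteins bind E-boxes as a pair and switch on the Per and Cry genes, whose proteins enter the nucleus and hold that pair back. In a second loop Nr1d1 and Nr1d2, which encode the nuclear receptors REV-ERB alpha and beta, repress Arntl, while ROR receptors bind the same DNA element and activate it. Dbp is an output of the loop: it is switched on through E-boxes and encodes a factor that binds D-boxes. Most of these transcripts rise and fall over the day, so that their level in a tissue depends on the hour at which it was taken.

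The promoters of these genes were searched for the elements named above, and 4 are shown because their genes differed in size of change or in call after injury. The sequences are RefSeq promoters of GRCm38.p6, from 250 bases before to 50 bases after a transcription start, 5′ to 3′ on the gene's strand. Capitals mark 4 motifs, searched on both strands: the E-box CACGTG, the related E′ box CACGTT (or AACGTG), the D-box TTATGTAA (or TTACATAA) and the core of the ROR element, AGGTCA (or TGACCT). No marked stretches overlapped. Nr1d1, which fell most after injury, is shown at chr11:98775328-98775627 on the minus strand, with an E′ box starting at position -28. Arntl, which separated injured from sham arrays completely, is shown at chr7:113207261-113207560 on the plus strand, with a ROR core at position 32, just after the start. A second listed Arntl promoter, at chr7:113207215-113207514, held none of the motifs. Per3, the Period gene that fell in both genotypes, is shown at chr4:151044616-151044915 on the minus strand, with D-boxes at -205 and -158. Per1, which did not pass the test, is shown at chr11:69098699-69098998 on the plus strand, with an E-box at -166 and a ROR core at -137. A second listed Per1 promoter, at chr11:69099902-69100201, held none.
Nr1d1: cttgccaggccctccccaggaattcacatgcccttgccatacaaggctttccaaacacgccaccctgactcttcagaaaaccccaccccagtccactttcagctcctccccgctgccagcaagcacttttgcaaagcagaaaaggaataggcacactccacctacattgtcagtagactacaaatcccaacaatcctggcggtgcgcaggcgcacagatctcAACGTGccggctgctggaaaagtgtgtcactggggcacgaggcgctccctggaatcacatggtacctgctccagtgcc
Arntl: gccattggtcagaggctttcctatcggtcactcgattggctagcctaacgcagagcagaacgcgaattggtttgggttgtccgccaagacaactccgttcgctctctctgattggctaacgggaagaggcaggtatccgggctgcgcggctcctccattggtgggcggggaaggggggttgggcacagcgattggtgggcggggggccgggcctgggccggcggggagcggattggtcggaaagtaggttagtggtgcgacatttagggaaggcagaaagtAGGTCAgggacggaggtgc
Per3: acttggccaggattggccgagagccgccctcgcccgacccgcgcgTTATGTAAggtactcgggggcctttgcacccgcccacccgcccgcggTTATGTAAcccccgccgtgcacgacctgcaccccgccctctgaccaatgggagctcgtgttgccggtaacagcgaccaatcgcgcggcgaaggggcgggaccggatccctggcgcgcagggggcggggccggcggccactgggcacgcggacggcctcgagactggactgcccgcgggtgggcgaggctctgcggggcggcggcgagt
Per1: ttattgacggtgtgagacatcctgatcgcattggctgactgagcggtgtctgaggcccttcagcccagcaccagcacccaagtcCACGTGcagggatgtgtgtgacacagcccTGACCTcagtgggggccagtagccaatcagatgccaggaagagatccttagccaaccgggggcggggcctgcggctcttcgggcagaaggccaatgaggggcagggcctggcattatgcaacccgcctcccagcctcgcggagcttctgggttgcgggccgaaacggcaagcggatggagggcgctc

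Of the 10 genes, 9 had at least 1 promoter in the RefSeq table (13 promoters in all), and none was listed for Per2. The E-box stood in 2 of the 13, in Per1 and in Cry1 (at -60), against 7.15% of 32851 promoters of the same length. The E′ box stood in 3 of the 13, in Nr1d1, Cry1 (at -79) and Cry2 (at -166), against 4.68% of all. The D-box stood in 1, the Per3 promoter, against 0.938% of all. The ROR core stood in 4, in Nr1d2 (at -77), Per1, Arntl and Clock (at -119), against 16.3% of all. The 1 listed Dbp promoter held none of the 4 motifs, Per3 and Cry2 held no E-box, and 2 of the 3 Clock promoters held no motif. These are matches of letters in a short window; they do not show that a factor was bound, and the genes named here that fell and those that did not each included promoters with and without an E-box or E′ box.

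Each row of the table gives the log2 signal of 1 transcript cluster, the set of probes that covers a gene's transcripts. Array medians lay between 5.79 and 5.90, and every one of the 10 genes was above its own array's median on 28 of 28 arrays. The highest of 23 background control rows lay between 6.14 and 7.53 over the arrays. Cry1 (7.41 to 7.97) and Per2 (7.63 to 8.10) had the lowest signals of the 10, close to the upper end of that range. This limits what their missing calls can show. As a check of the genotype labels, Rbm5 averaged 9.75 ± 0.04 in KO CCI and 9.76 ± 0.06 in KO sham, against 10.66 ± 0.06 in WT CCI and 10.78 ± 0.04 in WT sham (SD, n = 7 each), and every knockout array was below every wild type array. Which exons the knockout removes is not given, so the signal that remained is not read further. Of 10 striatal marker genes 8 were measured, and their mean log2 signal lay between 7.04 and 10.07 in KO CCI and 7.22 and 8.37 in KO sham, and between 6.99 and 9.75 in WT CCI and 7.18 and 7.72 in WT sham. Because of high striatal or choroid plexus signal, results are also given without 7 arrays (KO CCI replicates 22 and 40, WT CCI replicates 13, 14, 16 and 35 and WT sham replicate 25). The numbers in the sample titles form runs of 1 to 24 and 25 to 42, with 4 and 3 animals of each group, and the labels do not say whether these are batches.

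After injury most of the clock genes were lower in both genotypes. In knockout mice 6 of the 10 genes fell and none rose: Nr1d1, Nr1d2, Per3, Cry2, Arntl and Dbp. In wild type mice 6 fell and none rose, and all 6 were shared with the knockout. Per1, Per2, Cry1 and Clock did not pass the test in either genotype. The falls were modest, between 1.2-fold and 1.58-fold in knockout mice and between 1.13-fold and 1.57-fold in wild type mice. Differences were tested with limma over all 65956 non-control rows, with sex as a term and Benjamini-Hochberg adjustment, at an adjusted p under 0.05. The same test called 8.27% of all rows lower in knockout mice and 7.96% lower in wild type mice. These shares include many dim rows, while the 10 genes lay between percentiles 73.4 and 96.8 of mean signal. With only rows above the median of the array medians tested, 10789 were called in knockout mice, 4740 of them higher. In wild type mice 10636 were called, 5193 of them higher. Over all rows the calls numbered 11017 and 11094, so calls made up a larger share of these fewer rows, which were adjusted among themselves. The shares of all rows called lower are therefore low as a comparison for genes this bright. The median log2 change of the 10 genes was -0.27 in knockout mice, where the median of all rows was 0.01, and -0.23 in wild type mice, where that of all rows was -0.02. Averaged over both genotypes, 7 of the 10 fell, with Per2 added, where 12.9% of all rows were called lower. For 9 of the 10 genes both sham means lay above both injured means, and Clock was the exception.

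**Figure D1:**
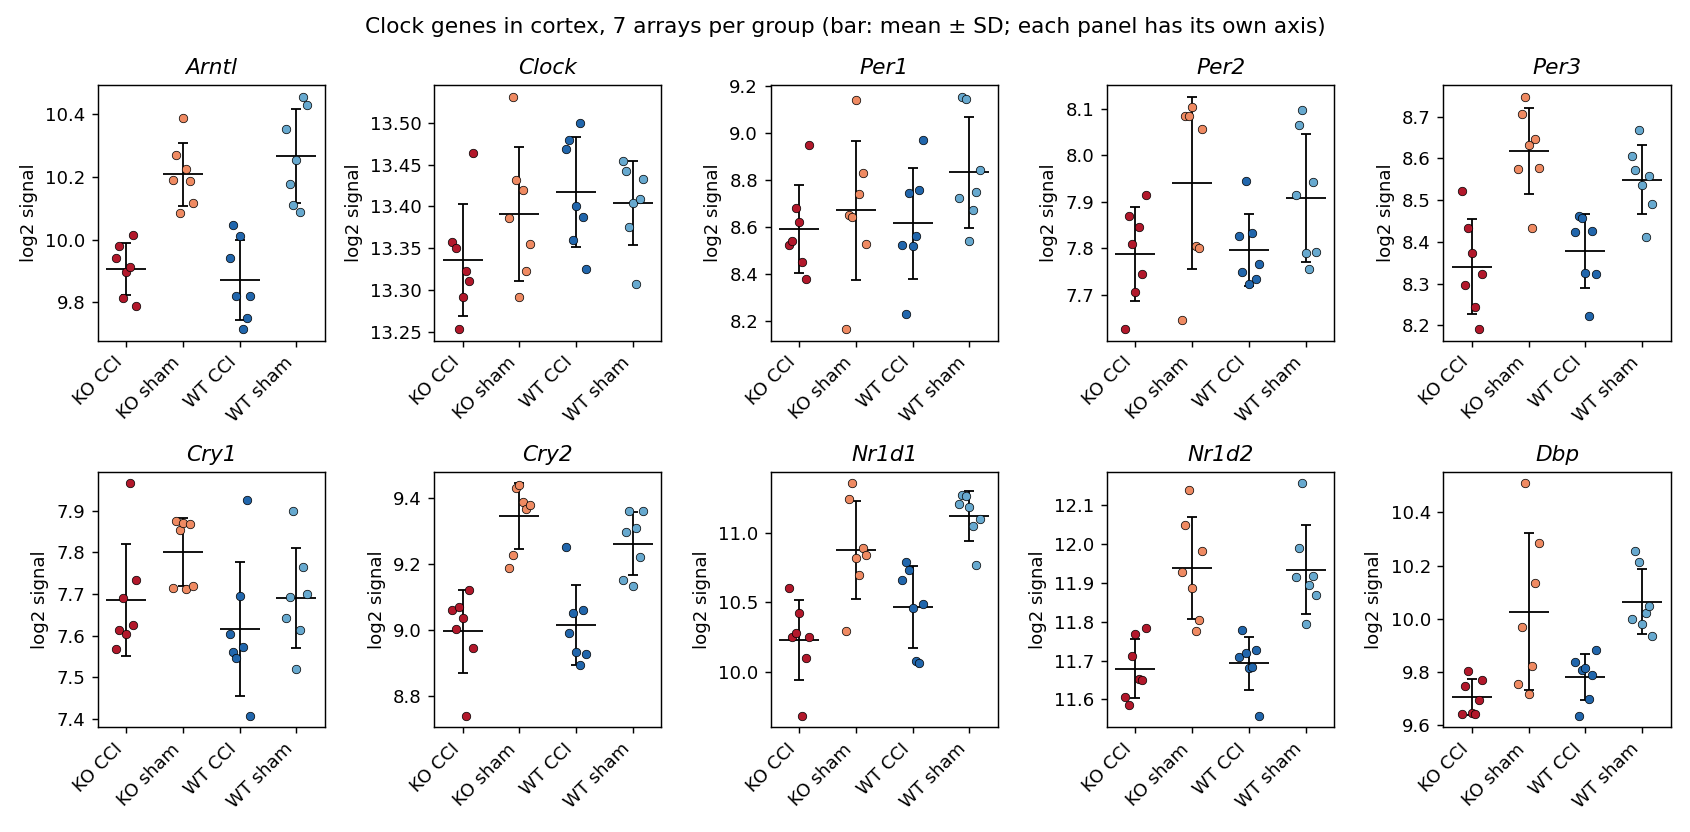
The log2 signal of the 10 clock genes (y axis, a separate scale for each gene) is plotted for every array, with 7 points a group and bars at the mean with SD. Groups run left to right as KO CCI, KO sham, WT CCI and WT sham. Injured arrays sit below sham arrays for Arntl without overlap, with 10.05 as the highest injured value and 10.09 as the lowest sham value, while the 4 groups of Clock overlap.

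**Figure D2:**
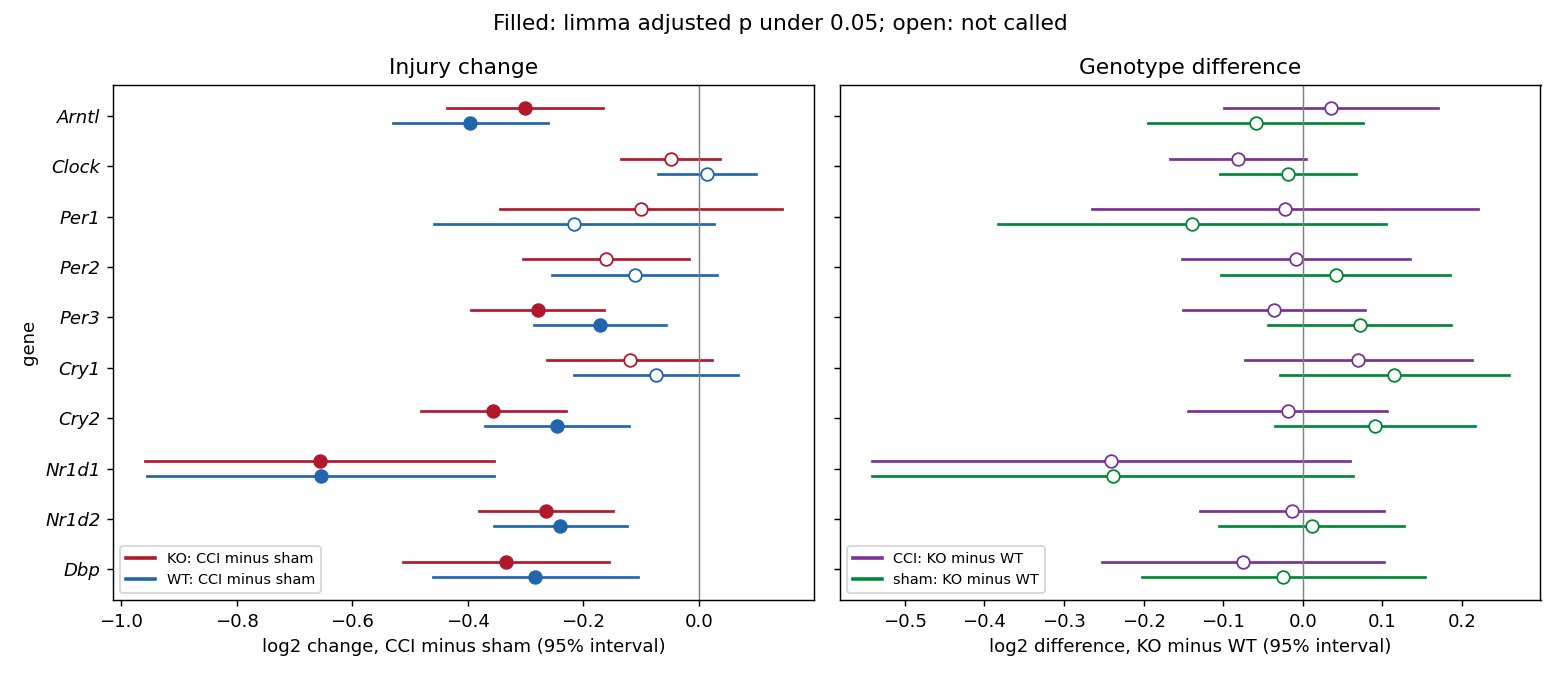
The log2 change after injury (injured minus sham, with 95% confidence intervals from limma) is plotted for each clock gene in knockout and in wild type mice on the left, and the log2 difference between genotypes (knockout minus wild type) after injury and after sham on the right, with filled points where the adjusted p was under 0.05. All points on the right are open. The largest change is that of Nr1d1, -0.66 in knockout and -0.65 in wild type mice, and the intervals of Clock include 0 in both.

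Among the activators, Arntl (chromosome 7, 113178471 to 113314126) separated the procedures most sharply. Its lowest, median and highest log2 signal were 9.79, 9.91 and 10.01 in KO CCI, against 10.09, 10.19 and 10.39 in KO sham. The wild type values were 9.71, 9.82 and 10.05 in WT CCI, against 10.09, 10.25 and 10.46 in WT sham. Every injured array was below every sham array, across genotypes too, a separation that 1.01% of all rows showed. The log2 change was -0.30 (SE 0.0658, limma adjusted p = 0.00145) in knockout mice, a 1.23-fold fall, and -0.40 (SE 0.0655, limma adjusted p = 4.94e-05) in wild type mice, a 1.32-fold fall. Clock (chromosome 5, 76209868 to 76305603), which encodes the partner of Arntl, did not follow. It ran between 13.25 and 13.46 with a median of 13.32 in KO CCI, and between 13.29 and 13.53 with a median of 13.39 in KO sham. It ran between 13.33 and 13.50 with a median of 13.40 in WT CCI, and between 13.31 and 13.45 with a median of 13.41 in WT sham. The groups overlapped throughout, and the 95% interval of the log2 change was -0.13 to 0.04 in knockout mice and -0.07 to 0.10 in wild type mice. These intervals leave out a fall of the size seen for Arntl.

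The receptor gene Nr1d1 (chromosome 11, 98767932 to 98775377) had the largest change of the 10 and the largest standard error. Its lowest, median and highest log2 signal were 9.68, 10.25 and 10.61 in KO CCI, against 10.29, 10.84 and 11.36 in KO sham. The wild type values were 10.06, 10.49 and 10.79 in WT CCI, against 10.77, 11.19 and 11.27 in WT sham. In knockout mice 5 of 7 injured arrays were below all sham arrays, and in wild type mice 6 of 7. The log2 change was -0.66 (SE 0.147, limma adjusted p = 0.00187) in knockout mice and -0.65 (SE 0.147, limma adjusted p = 0.00171) in wild type mice, falls of 1.58-fold and 1.57-fold. The end of Nr1d1 overlaps Thra, a thyroid hormone receptor gene on the opposite strand, by 1075 bases. The row of Thra differed after injury by 0.02 on the log2 scale in knockout mice and by 0.10 in wild type mice.

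Nr1d2 (chromosome 14, 18204056 to 18239106), which encodes the second REV-ERB receptor, moved less but with a tighter spread. Its lowest, median and highest log2 signal were 11.59, 11.65 and 11.78 in KO CCI, against 11.78, 11.93 and 12.14 in KO sham. The wild type values were 11.56, 11.71 and 11.78 in WT CCI, against 11.79, 11.91 and 12.16 in WT sham. The wild type groups did not overlap, and 6 of 7 injured knockout arrays were below all knockout sham arrays. The log2 change was -0.26 (SE 0.0565, limma adjusted p = 0.00116) in knockout mice and -0.24 (SE 0.0562, limma adjusted p = 0.0027) in wild type mice.

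Of the 3 Period genes, which encode the repressors that pair with the cryptochromes, only Per3 passed the test in each genotype. Per3 (chromosome 4, 150997018 to 151044707) had a lowest, median and highest log2 signal of 8.19, 8.32 and 8.52 in KO CCI, against 8.43, 8.63 and 8.75 in KO sham. In wild type animals these were 8.22, 8.42 and 8.46 in WT CCI, against 8.41, 8.56 and 8.67 in WT sham. The groups overlapped in both genotypes, with 5 of 7 injured arrays below all sham arrays in knockout mice and 3 of 7 in wild type mice. The log2 change was -0.28 (SE 0.0561, limma adjusted p = 0.000614) in knockout mice and -0.17 (SE 0.0558, limma adjusted p = 0.0327) in wild type mice. The wild type call lay near the threshold, while its log2 change stayed between -0.19 and -0.15 when single arrays were left out in turn. The call was lost when any 1 of 6 arrays was left out (WT CCI replicates 16, 34 and 36 and WT sham replicates 1, 2 and 3), with a limma adjusted p of up to 0.0883.

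Per1 and Per2 are the Period genes that light and neuronal activity also induce. Per1 (chromosome 11, 69095108 to 69109965) had a lowest, median and highest log2 signal of 8.38, 8.54 and 8.95 in KO CCI, against 8.16, 8.65 and 9.14 in KO sham. In wild type animals these were 8.23, 8.56 and 8.97 in WT CCI, against 8.54, 8.75 and 9.16 in WT sham. The groups overlapped, and the log2 differences of -0.10 (limma adjusted p = 0.666) in knockout mice and -0.22 (limma adjusted p = 0.249) in wild type mice were within the spread. Per2 (chromosome 1, 91415977 to 91459351) ran between 7.63 and 7.91 with a median of 7.81 in KO CCI, and between 7.65 and 8.10 with a median of 8.06 in KO sham. It ran between 7.72 and 7.94 with a median of 7.77 in WT CCI, and between 7.75 and 8.10 with a median of 7.91 in WT sham. Its log2 difference was -0.16 (limma adjusted p = 0.127) in knockout mice and -0.11 (limma adjusted p = 0.334) in wild type mice. Over both genotypes Per2 was at -0.14 (SE 0.0495, limma adjusted p = 0.043), a call lost when any 1 of 16 of the 28 arrays was left out.

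The cryptochromes bind the Arntl and Clock pair and block it. Cry2 passed the test in both genotypes and Cry1 in neither. Cry2 (chromosome 2, 92403646 to 92434085) had a lowest, median and highest log2 signal of 8.74, 9.04 and 9.12 in KO CCI, against 9.19, 9.38 and 9.44 in KO sham. In wild type animals these were 8.89, 8.99 and 9.25 in WT CCI, against 9.13, 9.30 and 9.36 in WT sham. The knockout groups did not overlap, and in wild type mice 6 of 7 injured arrays were below all sham arrays. The log2 change was -0.36 (SE 0.0612, limma adjusted p = 0.000107) in knockout mice, a 1.28-fold fall, and -0.25 (SE 0.0609, limma adjusted p = 0.00435) in wild type mice, a 1.19-fold fall. Cry2 shares 23417 bases with D930015M05Rik, a long noncoding RNA gene. The row of D930015M05Rik differed after injury by -0.17 on the log2 scale in knockout mice and by -0.05 in wild type mice. Whether the 2 rows are linked was not tested. Cry1 (chromosome 10, 85131700 to 85185054) ran between 7.57 and 7.97 with a median of 7.63 in KO CCI, and between 7.71 and 7.88 with a median of 7.85 in KO sham. It ran between 7.41 and 7.92 with a median of 7.57 in WT CCI, and between 7.52 and 7.90 with a median of 7.69 in WT sham. Its log2 difference was -0.12 (limma adjusted p = 0.289) in knockout mice and -0.07 (limma adjusted p = 0.56) in wild type mice. Over both genotypes Cry1 did not pass with all arrays (-0.10, limma adjusted p = 0.17) and did pass without the 7 arrays (-0.18, limma adjusted p = 0.00879). It also passed when WT CCI replicate 35 alone was left out (limma adjusted p = 0.0473) or KO CCI replicate 40 alone (limma adjusted p = 0.0415), both among those 7.

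Dbp (chromosome 7, 45705100 to 45710203), the output gene, was nearly level among injured animals and spread out among sham animals of the knockout. Its lowest, median and highest log2 signal were 9.64, 9.69 and 9.81 in KO CCI, against 9.72, 9.97 and 10.51 in KO sham. In wild type mice they were 9.64, 9.81 and 9.88 in WT CCI, against 9.93, 10.02 and 10.25 in WT sham. The SD was 0.07 in KO CCI and 0.30 in KO sham. The wild type groups did not overlap, while in knockout mice 4 of 7 injured arrays were below all sham arrays. The log2 change was -0.33 (SE 0.0868, limma adjusted p = 0.00693) in knockout mice and -0.28 (SE 0.0863, limma adjusted p = 0.0217) in wild type mice. The wild type call was lost without WT sham replicate 2 (-0.24, limma adjusted p = 0.0623) and without the 7 arrays (-0.27, limma adjusted p = 0.193). Dbp shares 741 bases with Sphk2 on the opposite strand, and the row of Sphk2 was at a log2 difference of -0.00 in each genotype. Per3 shares 4714 bases with Uts2, whose row was at 0.01 in knockout and -0.03 in wild type mice. Clock shares 652 bases with Gm7467, whose row was at -0.03 and -0.08.

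The genes were also counted by the overlap of their groups. All injured arrays were below all sham arrays for 2 of the 10 genes in knockout mice, Cry2 and Arntl, where 2.87% of all rows showed this. In wild type mice they were for 3, Nr1d2, Arntl and Dbp, where 2.82% of all rows did. Without the 7 arrays with striatal or choroid plexus signal, 6 genes fell in knockout mice (the same 6, where 6.94% of all rows fell) and 5 in wild type mice (these less Dbp, where 6.35% did).

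Paralogous genes, and the partners Arntl and Clock, were then compared for the size of their injury change. The test was an exact two-sided permutation test of 7 against 7 arrays on the per-array difference of the 2 log2 signals. There were 12 tests, adjusted together, and the pairs were chosen after their values had been seen. The change of Arntl minus that of Clock was -0.25 in knockout mice (exact p = 0.00117, adjusted 0.00699) and -0.41 in wild type mice (exact p = 0.000583, adjusted 0.00699). The change of Nr1d1 minus that of Nr1d2 was -0.39 in knockout mice (exact p = 0.0274, adjusted 0.0657) and -0.42 in wild type mice (exact p = 0.00466, adjusted 0.0186). The change of Cry2 minus that of Cry1 was -0.23 in knockout mice (exact p = 0.0198, adjusted 0.0594) and -0.17 in wild type mice (exact p = 0.0484, adjusted 0.0967). The remaining 6 tests, among the Period genes, had adjusted exact p between 0.284 and 0.73.

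Markers of several cell types moved with the same contrast, and their counts stand against the shares of all rows called lower (8.27% in knockout and 7.96% in wild type mice) or higher (8.43% and 8.86%). Of 8 genes that mark excitatory neurons of the cortex, 7 were measured, and their mean log2 signal was 10.51 ± 0.13 in KO CCI (10.26 to 10.66) and 10.92 ± 0.08 in KO sham (10.75 to 11.01). In wild type mice it was 10.43 ± 0.15 in WT CCI (10.15 to 10.55) and 10.82 ± 0.07 in WT sham (10.69 to 10.90), so that no injured array reached a sham array. In each genotype 5 of the 7 fell, among them Neurod6 and Nrn1, while Slc17a7, the vesicular glutamate transporter of these neurons, did not pass the test in either. Of 11 measured markers of neurons in general, 4 fell in knockout mice, and in wild type mice 3 fell and 1 rose. Their mean log2 signal was 13.32 in KO CCI (13.17 to 13.40) and 13.50 in KO sham (13.38 to 13.61), and 13.40 in WT CCI (13.27 to 13.56) and 13.49 in WT sham (13.39 to 13.60), with overlap in both genotypes.

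Most calls among markers of glia and vessels went the other way, though not every list rose in knockout mice. Of 10 microglia and macrophage markers 8 rose in each genotype, and their mean was 9.06 in KO CCI (8.67 to 9.57) and 7.56 in KO sham (7.44 to 7.75), and 9.22 in WT CCI (8.67 to 9.80) and 7.40 in WT sham (7.31 to 7.50). Of 7 measured astrocyte markers 3 rose and 1 fell in knockout mice, and 4 rose and 1 fell in wild type mice. The median log2 change of these astrocyte markers was 0.02 in knockout mice and 0.27 in wild type mice. Their mean was 11.73 in KO CCI (11.48 to 11.96) and 11.24 in KO sham (11.01 to 11.48), and 11.78 in WT CCI (11.45 to 12.01) and 10.98 in WT sham (10.92 to 11.03). Neither list overlapped between injured and sham arrays of a genotype. Endothelial markers, of which 2 of 6 rose in knockout and 3 of 6 in wild type mice, averaged 8.49 in KO CCI (8.24 to 8.66) and 8.15 in KO sham (7.94 to 8.39), and 8.78 in WT CCI (8.63 to 9.01) and 8.24 in WT sham (8.09 to 8.47). Oligodendrocyte markers, of which 1 of 6 measured rose in knockout and 5 of 6 in wild type mice, averaged 10.84 in KO CCI (10.08 to 11.28) and 10.74 in KO sham (10.44 to 11.02), and 11.20 in WT CCI (11.04 to 11.28) and 10.46 in WT sham (10.11 to 10.64). The endothelial and oligodendrocyte means overlapped in knockout mice and did not in wild type mice. Of the 6 oligodendrocyte markers 4 were below 0 in knockout mice, with a median log2 change of -0.06, against 0.66 in wild type mice. In the test of genotype by injury all 6 had an unadjusted p under 0.05, where 6.21% of all rows did, and 0 passed after adjustment. In such bulk tissue fewer cells of a type and less RNA per cell cannot be told apart.

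Each clock gene was correlated with the mean of each of 8 marker lists over the 28 arrays, as deviations from the mean of each group and sex. Here and for Cry1 below, r within a run of title numbers or without the 7 arrays used deviations from group means only. Sex was not removed from those values, so they are not quite the same measure. Of these 80 relations 9 had a permutation p under 0.05, and 0 passed after adjustment over the 80, where the smallest adjusted p was 0.117. The lists are not independent of each other, since they were read on the same tissue pieces. Nr1d1 had Pearson's r = 0.66 with the excitatory neuron markers (permutation p = 0.0025, adjusted 0.117) and Spearman's rho = 0.55 (permutation p = 0.0103, adjusted 0.313). Without the 2 arrays farthest out r was 0.53, it was 0.70 in title numbers 1 to 24 and 0.58 in 25 to 42, and it was 0.44 without the 7 arrays. With the broader neuron list Nr1d1 had r = 0.06 (permutation p = 0.815, rho = -0.00), and -0.15 without the 7 arrays. With other lists Nr1d1 had r = 0.46 for astrocytes, 0.24 for microglia and macrophages and -0.49 for striatum (permutation p = 0.0565, 0.265 and 0.0613, rho = 0.40, 0.17 and -0.47). For oligodendrocytes, endothelial cells and choroid plexus r was 0.01, 0.04 and -0.34 (permutation p = 0.966, 0.862 and 0.219).

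Cry1 varied with several lists at once. It had r = -0.67 with the microglia and macrophage markers (permutation p = 0.00293, adjusted 0.117) and rho = -0.55 (permutation p = 0.0186, adjusted 0.313). That r was -0.62 without the 2 farthest arrays, -0.41 in numbers 1 to 24, -0.74 in 25 to 42 and -0.37 without the 7 arrays. It had r = -0.63 with the excitatory neuron markers, -0.62 with astrocytes and 0.61 with striatum (permutation p = 0.0439, 0.0107 and 0.0385, rho = -0.48, -0.52 and 0.47). Without the 7 arrays these were 0.14, -0.24 and 0.15, so that all 3 were nearer 0 and that with the excitatory neuron markers changed sign.

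With the mean of the excitatory neuron markers as a further term in limma, an alternative added after the data were seen, 1 of the 10 genes was called lower in each genotype and it was Cry1, where 1.86% of all rows were called lower in knockout mice and 3.77% in wild type mice. The log2 change of Nr1d1 was then -0.02 (SE 0.203, limma adjusted p = 0.974) in knockout mice and -0.05 (SE 0.196, limma adjusted p = 0.908) in wild type mice. That of Cry2 was -0.18 (limma adjusted p = 0.346) and -0.08 (limma adjusted p = 0.66), and that of Per3 was -0.19 (limma adjusted p = 0.284) and -0.09 (limma adjusted p = 0.598). Arntl, Nr1d2 and Dbp kept most of their size but not their calls: Arntl was at -0.23 (SE 0.112, limma adjusted p = 0.274) and -0.33 (SE 0.108, limma adjusted p = 0.052). Nr1d2 was at -0.24 (limma adjusted p = 0.162) and -0.22 (limma adjusted p = 0.145), and Dbp at -0.29 (limma adjusted p = 0.325) and -0.24 (limma adjusted p = 0.328). Cry1 was at -0.38 (limma adjusted p = 0.0233) in knockout mice and -0.32 (limma adjusted p = 0.036) in wild type mice. Its r of -0.63 with these markers inside groups was 0.14 without the 7 arrays. KO CCI replicate 40 and WT CCI replicate 35 had the highest Cry1 signals of their groups (7.97 and 7.92). They also had the lowest marker means of their groups (10.26 and 10.15). Whether the Cry1 calls in this fit hold without these arrays was not tested. Since the marker mean itself parts injured from sham arrays without overlap, the term overlaps much of the contrast, and standard errors were larger. The other genes given here moved nearer 0 with the term, whereas Cry1 moved away from -0.12 in knockout and -0.07 in wild type mice. With the broader neuron list as the term, 4 genes fell in knockout mice (Nr1d2, Per3, Cry2 and Arntl) and 5 in wild type mice (these and Nr1d1), where 5.68% and 7.93% of all rows fell. Nr1d1 was then at -0.56 in knockout mice (limma adjusted p = 0.0523) and -0.61 in wild type mice, and Dbp at -0.29 (limma adjusted p = 0.104) and -0.26 (limma adjusted p = 0.0551).

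**Figure D3:**
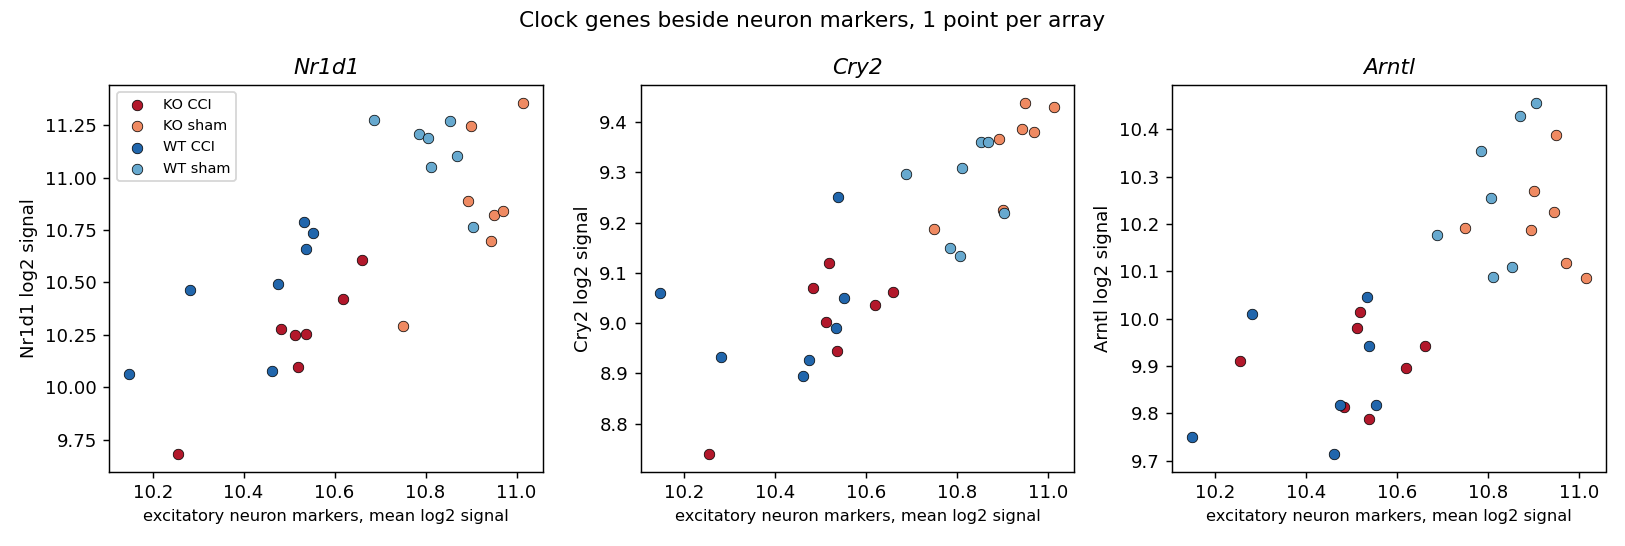
For Nr1d1, Cry2 and Arntl, the log2 signal (y axis) is plotted against the mean log2 signal of 7 cortical excitatory neuron markers (x axis), with 1 point for each of the 28 arrays, coloured by group. Injured arrays lie at lower marker means in every panel, at or below 10.66, and sham arrays at or above 10.69, and inside groups Nr1d1 had r = 0.66 with the markers, which did not pass after adjustment (0.117).

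No clock gene was called between genotypes. After sham, 0 of the 10 genes passed limma's test between knockout and wild type mice, 0 had an unadjusted p under 0.05, and 1.28% of all rows were called. After injury 0 passed, 0 had an unadjusted p under 0.05, and 0.653% of all rows were called. The largest difference was that of Nr1d1, which was at -0.24 in knockout against wild type mice both after sham (95% interval -0.54 to 0.06, limma adjusted p = 0.599) and after injury (-0.54 to 0.06, limma adjusted p = 0.634). Averaged over both procedures 0 of 10 passed, where 3.16% of all rows were called, and 1 had an unadjusted p under 0.05. This was Nr1d1, at -0.24 (SE 0.104, 95% interval -0.45 to -0.03, unadjusted p = 0.0288, limma adjusted p = 0.305). With the excitatory neuron markers as a term it was at -0.39 (SE 0.0925, limma adjusted p = 0.0162) and called, where 2.1% of all rows were called lower. For the other 9 genes the difference over both procedures lay between -0.08 for Per1 and 0.09 for Cry1. The interval was -0.11 to 0.08 for Arntl and -0.18 to 0.08 for Dbp.

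Whether injury changed a gene by a different amount in each genotype was also tested. The test passed for 0 of 10 in limma, 0 had an unadjusted p under 0.05, and 0% of all rows were called. The knockout change minus the wild type change was -0.00 for Nr1d1 (95% interval -0.43 to 0.42), 0.09 for Arntl (-0.10 to 0.29), -0.11 for Per3 (-0.27 to 0.05) and -0.11 for Cry2 (-0.29 to 0.07). For Nr1d1 this interval is wide enough to hold a difference of more than the genotype difference seen above. Females and males were compared across the groups as well, with 0 of 10 called by limma, 0 at an unadjusted p under 0.05, and 0.487% of all rows called. The largest difference, female minus male, was that of Per1 at 0.15 (-0.02 to 0.32).

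The 2 runs of title numbers gave the same direction for the 6 genes that fell. In numbers 25 to 42 the injury change of Nr1d1 was -0.85 (limma adjusted p = 0.0166) in knockout mice and -0.76 (limma adjusted p = 0.0121) in wild type mice. In numbers 1 to 24 it was -0.54 (limma adjusted p = 0.0597) and -0.57 (limma adjusted p = 0.0542). For Arntl the change in numbers 25 to 42 was -0.30 (limma adjusted p = 0.153) in knockout mice and -0.56 (limma adjusted p = 0.00718) in wild type mice, and in numbers 1 to 24 it was -0.33 (limma adjusted p = 0.0109) and -0.27 (limma adjusted p = 0.0383). With fewer arrays, 2 genes fell in each genotype in the later run, where 1.93% of all rows fell in knockout and 3.2% in wild type mice. In the earlier run 4 fell in knockout mice, where 5.27% of all rows did, and 1 in wild type mice, where 3.63% did. The level of Nr1d1 in the later run minus the earlier was -0.31 (SE 0.0883, limma adjusted p = 0.139), where 0.162% of all rows were called. With the run as a term, 6 genes fell in each genotype, where 8.56% of all rows fell in knockout and 8.31% in wild type mice.

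To see whether the genes varied together among animals of 1 group, the 45 pairs were correlated over the 28 arrays, as deviations from the mean of each group and sex. Values of r within a run of title numbers used deviations from group means only, with sex not removed. Of the 45, 34 had a Pearson r above 0, and 0 passed at an adjusted permutation p under 0.05. The highest was Nr1d1 with Per3, with r = 0.66 (permutation p = 0.00282, adjusted 0.0634) and rho = 0.69 (permutation p = 0.00146, adjusted 0.0477), and r = 0.68 without the 2 farthest arrays. It was 0.74 in numbers 1 to 24 and 0.09 in 25 to 42, and so was not seen in the later run. Nr1d2 with Per3 had r = 0.56 (adjusted permutation p = 0.0634) and rho = 0.61 (adjusted permutation p = 0.0477), with 0.56 and 0.40 in the 2 runs. Per1 with Per2 had r = 0.56 (adjusted permutation p = 0.122), with 0.81 and -0.05 in the 2 runs. The lowest was Arntl with Dbp, with r = -0.49 (permutation p = 0.0428, adjusted 0.251) and rho = -0.41 (permutation p = 0.0792).

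**Figure D4:**
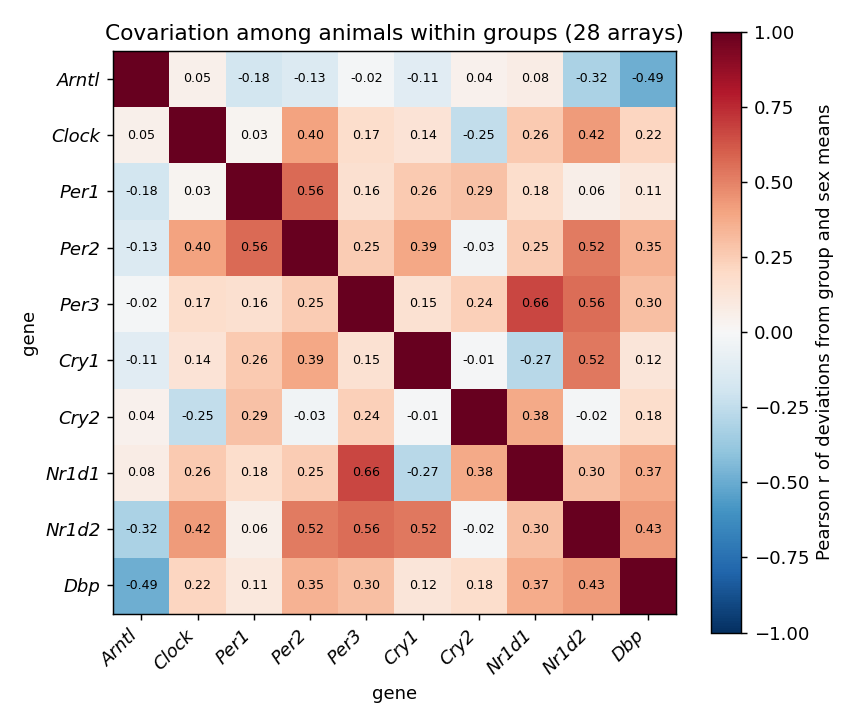
Each square gives Pearson's r between 2 clock genes over 28 arrays, after the mean of each group and sex was taken out, on a colour scale with limits of -1 and 1. Red squares prevail among Nr1d1, Nr1d2 and Per3, and the darkest blue is Arntl with Dbp at -0.49.

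The genes whose pattern among animals was most like that of 3 of the clock genes were looked up among 16824 named genes, by the same r over 28 arrays, given as a description. Only genes with a mean signal above the median of the array medians were included. For Dbp the highest were Gsx2 (0.74), Gm25541 (0.68), Kctd18 (0.67), 2610020C07Rik (0.64), Gm22251 (0.64) and Tmx3 (0.64), and the lowest were Rhpn2 (-0.68), Mphosph10 (-0.67), Mir6381 (-0.66) and Fosb (-0.66). For Nr1d1 the highest were Ly6e (0.88), Ctc1 (0.87), Psmf1 (0.86), Tmem63b (0.86), Sez6l2 (0.86) and Wipf2 (0.86), and the lowest were Crabp1 (-0.83), Gm16378 (-0.80), Gm25899 (-0.77) and Gm12540 (-0.77). For Arntl the highest were Hs1bp3 (0.78), Akap8 (0.77), Sorcs3 (0.70), Ift172 (0.70), Amd2 (0.69) and Mir669d-2 (0.68), and the lowest were Stambp (-0.77), Cdca7l (-0.77), Rex2 (-0.67) and Coq10b (-0.67). No clock gene was among them. Nr1d1 had 204 genes with r beyond 0.7 in either direction, against 5 for Arntl and 1 for Dbp. Of the other clock genes, Cry1 had 65 and Per3 had 52. These points share tissue pieces and arrays, and the values of Nr1d1 beside the excitatory neuron markers are given above.

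A wider list of 28 clock genes, with 25 measured, moved in both directions after injury. In knockout mice 9 fell and 6 rose, and in wild type mice 8 fell and 6 rose, with 8 of the falls and 5 of the rises shared. The test called 8.27% of all rows lower and 8.43% higher in knockout mice, and 7.96% lower and 8.86% higher in wild type mice. The median log2 change of the list was -0.05 in each genotype. The largest falls were those of the ROR receptor genes, which activate Arntl: Rorb changed by -0.96 (SE 0.125, limma adjusted p = 2.36e-06) in knockout mice and -0.75 (SE 0.124, limma adjusted p = 4.53e-05) in wild type mice. Rora changed by -0.54 (SE 0.102, limma adjusted p = 0.000296) in knockout mice and -0.58 (SE 0.101, limma adjusted p = 9.61e-05) in wild type mice. Both genes are also markers of neurons in the middle layers of the cortex, and their brightest rows carry no chromosome in their identifiers. A second row of Rorb fell as well (-0.85 in knockout and -0.70 in wild type mice), and of the other rows of Rora 1 fell (-0.37 and -0.28) and 1 did not pass, at -0.22 and -0.11. Usp2, a deubiquitinase of clock proteins, changed by -0.44 and -0.46, and Npas2, which can stand in for Clock as partner of Arntl, by -0.40 and -0.32. Ciart, a repressor of the Arntl and Clock pair, changed by -0.32 in knockout mice and by -0.40 in wild type mice, and Hlf, a D-box factor related to Dbp, by -0.36 and -0.31. Among the rises, Bhlhe41, a repressor that binds E-boxes, changed by 0.41 (SE 0.0746, limma adjusted p = 0.000203) in knockout mice and 0.48 (SE 0.0742, limma adjusted p = 1.96e-05) in wild type mice. Bhlhe40, its relative, was at 0.04 and -0.06 and did not pass.

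**Figure D5:**
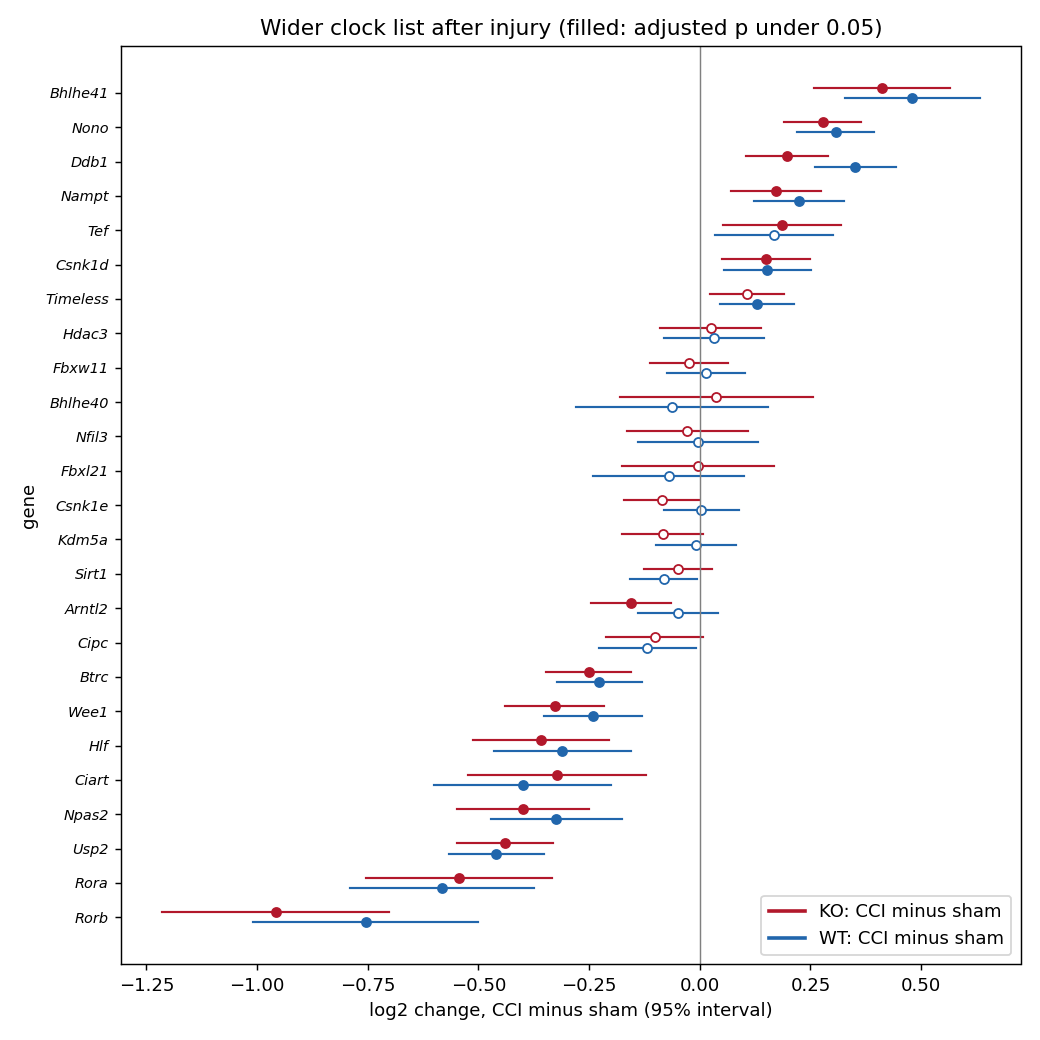
The log2 change after injury (injured minus sham, limma, with 95% confidence intervals) is plotted for the 25 measured genes of the wider clock list in knockout and in wild type mice, with filled points where the adjusted p was under 0.05. Rorb and Rora lie at the low end, with -0.96 and -0.54 in knockout mice, and Bhlhe41 at the high end with 0.41.

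Between genotypes the wider list had 1 call after sham, where 0.508% of all rows were called higher, and the same 1 over both procedures, where 1.36% were. It was Kdm5a, a histone demethylase that also acts with the Arntl and Clock pair. It was higher in knockout than in wild type mice by 0.17 (SE 0.0441, limma adjusted p = 0.0471) after sham, and by 0.13 (limma adjusted p = 0.0119) over both procedures. After sham 7 of the 25 had an unadjusted p under 0.05, 1 of them lower in knockout mice, where 11.1% of all rows did. Over both procedures 7 did, 2 of them lower, where 12.8% of all rows did. After injury 0 of the 25 genes passed limma's test between genotypes, and 3 had an unadjusted p under 0.05, where 9.8% of all rows did. The test of genotype by injury passed for 0 of the 25, with 1 at an unadjusted p under 0.05, where 6.21% of all rows were.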

How the data were processed

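Cortical RNA of 28 mice was hybridised, as biotin-labelled cDNA made from 100 ng of total RNA, to MTA 1.0 arrays. The deposited table holds 1 log2 signal per transcript cluster and array, a unit read from the values (2.17 to 19.93). The authors' normalization and software are not stated in any label or header used here, and no further normalization was applied. Of 72688 rows, 6732 controls were left out and 65956 were tested. Names came from the platform annotation, which lists 32750 of these rows, updated through gene identifiers to the RefSeq annotation of GRCm38.p6, and a gene's brightest row over the arrays was used. Sequences and gene coordinates are RefSeq's for that build.

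Tests between groups used limma 3.58.1 under R 4.3.3 (linear fits with moderated variance, 4 group means and sex, all arrays, Benjamini-Hochberg adjustment over all rows, called at an adjusted p under 0.05). Correlations used 100000 permutations of the arrays within each group and sex, and comparisons of the injury change within gene pairs were exact permutation tests (scipy 1.17.1). The model was checked on simulated data. All 10 genes were tested in every comparison and are given by value after injury; between genotypes, for genotype by injury and between sexes the values printed were picked after they were seen. Also named were Rbm5, up to 6 genes of the wider list (largest change first), and 6 most and 4 least alike genes for Dbp, Nr1d1 and Arntl. The cell marker genes named, Bhlhe40 and the gene pairs compared for their injury change were chosen after their values were seen. The members, the gene lists and the set of 7 arrays were chosen with earlier results of these data known. Precision is limited by the number of arrays. The labels list each array as its own animal.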

Additional observations from a re-analysis of the deposited data

Results flagged for a closer look

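Cry1 in injured knockout mice was marked for 1 array that stood apart. KO CCI replicate 40 had a log2 signal of 7.97, and the next array was at 7.73, a gap of 0.587 of the group's range against Dixon's critical value of 0.568 for 7 arrays. This array is 1 of the 7 with high striatal or choroid plexus signal. The rule was applied to 40 groups of 7 arrays and marked this 1, where chance marks about 1 in 20 groups.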

How the results depend on the processing

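Every value of the 10 genes in 8 comparisons (80 results, 19 of them called) was recomputed under each alternative, 3390 values in all. No called result changed sign, 70 values lost a call and 10 gained one, and 113 values changed sign, all among results without a call. With only title numbers 1 to 24, 1 gene was called for injury in wild type mice, and with only 25 to 42 the count was 2 in knockout and 2 in wild type mice. With the cortical excitatory neuron marker mean as a term, added after seeing the data, the counts were 1 for injury in knockout mice, 1 in wild type mice and 1 over both genotypes (Cry1 each time), and 1 for knockout over both procedures (Nr1d1). In that fit injury calls over all rows numbered 3812 in knockout mice and 6383 in wild type mice, against 11017 and 11094 without the term. When each of the 28 arrays was left out in turn, 6 to 7 genes were called for injury in knockout mice, 4 to 6 in wild type mice and 6 to 8 over both genotypes, and 0 in the other comparisons. No paired analysis was possible because the replicate numbers come from the sample titles and no number occurs in more than 1 group. The alternative of another row for the same symbol was not run, as each gene had 1 row.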

Other observations

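Further genes of the wider clock list passed the test after injury. Btrc, a subunit of the ubiquitin ligase that marks Period proteins for breakdown, changed by -0.25 in knockout mice and -0.23 in wild type mice, and Wee1, a cell cycle kinase under clock control in mouse liver, by -0.33 and -0.24. Ddb1, a ubiquitin ligase adaptor, changed by 0.20 in knockout mice and 0.35 in wild type mice, Nono, an RNA-binding partner of Period proteins, by 0.28 and 0.31, and Nampt, the rate-limiting enzyme of NAD salvage, by 0.17 and 0.22. Csnk1d, a kinase of Period proteins, changed by 0.15 in each genotype. All of these passed limma's test in both genotypes, and these genes were picked after their values were seen.

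The D-box factor Tef was called in knockout mice, at 0.19 (limma adjusted p = 0.0495), and was at 0.17 in wild type mice (limma adjusted p = 0.0797), while the related Hlf and Dbp fell in both. The difference in call between genotypes was not seen in the test of the difference itself, in which 0 of the 25 measured genes of the wider list passed.

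In title numbers 25 to 42 Nr1d1 averaged 10.01 in KO CCI, 10.81 in KO sham, 10.21 in WT CCI and 10.97 in WT sham, and in numbers 1 to 24 it averaged 10.39, 10.93, 10.66 and 11.23 in those groups.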
